A study of Homo sapiens with 96 samples.

Results

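The 12 arrays labelled 0 h, of 96 in the series, measured RNA in MDA-MB-231 cells after pre-treatment with the MEK inhibitor U0126 alone, at the time at which EGF was due. They were chosen by their labels: all arrays labelled 0h in the series named 2D03, 2D04 and 3D04. Each series held 2 arrays labelled control with no agent, 1 labelled DMSO and 1 labelled U0126, so 3 U0126 arrays stood against 9 comparison arrays, each within its own series. All were MDA-MB-231, an established human breast cancer line with a mesenchymal character. The series 2D03 and 2D04 were 2D cultures and 3D04 was a 3D culture. Per the labels, cells were grown to 80% confluence and kept in low serum for 24 h, then received 10 uM U0126 or its vehicle DMSO for 30 min. The other 84 arrays followed the cells to 48 h, most of them with EGF at 10 ng/ml. The labels do not say whether repeats came from separate cultures, so p-values measure the spread between these arrays, which may be technical.

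MEK is the kinase that phosphorylates and activates ERK, and U0126 blocks MEK activity. Active ERK switches on immediate early genes such as FOS and EGR1 within minutes, largely through serum response factor and its ETS-family partners bound at promoters. These transcripts are short-lived, so their RNA follows the pathway's activity closely. Feedback genes such as DUSP6 and SPRY4 encode proteins that dampen the same pathway. Cells in low serum keep some ERK activity without added EGF, and the 0 h arrays ask which RNAs depended on it.

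Promoter windows are shown for 4 immediate early genes that the 0 h values turn on. They are the 250 bases before each RefSeq start in GRCh38.p14, 5′ to 3′ on the gene's strand, which is the plus strand in each case. FOS lies at chr14:75278578-75278827, EGR1 at chr5:138465229-138465478, IER2 at chr19:13150161-13150410 and ZFP36 at chr19:39406597-39406846. Capitals mark matches to 3 motifs searched on both strands: the CArG box, which serum response factor binds, the ETS core CCGGAA, and the cAMP response element TGACGTCA.
FOS promoter: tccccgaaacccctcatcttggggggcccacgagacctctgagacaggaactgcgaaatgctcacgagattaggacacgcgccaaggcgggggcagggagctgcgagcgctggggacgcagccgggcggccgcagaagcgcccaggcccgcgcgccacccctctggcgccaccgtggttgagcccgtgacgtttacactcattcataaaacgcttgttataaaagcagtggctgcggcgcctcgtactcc
EGR1 promoter: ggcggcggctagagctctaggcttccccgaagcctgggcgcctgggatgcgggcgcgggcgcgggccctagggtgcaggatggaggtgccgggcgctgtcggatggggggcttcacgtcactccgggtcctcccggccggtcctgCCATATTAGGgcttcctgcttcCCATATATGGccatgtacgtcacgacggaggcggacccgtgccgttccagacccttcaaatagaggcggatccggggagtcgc
IER2 promoter: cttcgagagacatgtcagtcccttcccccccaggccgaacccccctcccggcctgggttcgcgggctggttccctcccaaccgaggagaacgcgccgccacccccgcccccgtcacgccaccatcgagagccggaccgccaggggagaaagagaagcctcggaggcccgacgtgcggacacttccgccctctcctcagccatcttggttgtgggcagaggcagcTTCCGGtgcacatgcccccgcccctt
ZFP36 promoter: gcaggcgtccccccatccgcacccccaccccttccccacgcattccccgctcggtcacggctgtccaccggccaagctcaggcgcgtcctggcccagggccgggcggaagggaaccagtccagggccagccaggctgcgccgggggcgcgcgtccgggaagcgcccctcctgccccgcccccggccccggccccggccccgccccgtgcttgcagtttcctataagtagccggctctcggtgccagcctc
EGR1 held 2 CArG boxes, CCATATTAGG from 105 to 96 bases and CCATATATGG from 83 to 74 bases before its start. Of 35116 promoter windows of this length, 1.16% held such a box. IER2 held 1 ETS core on its other strand, TTCCGG, from 26 to 21 bases before its start, as 14.5% of the windows did. The FOS and ZFP36 windows held none of the 3 motifs, and the cAMP element was in none of the 4, against 1.65% of all windows. Only these exact forms within 250 bases were searched. Variant sites and sites further upstream were not looked for, so a window without a match does not mean a gene without such sites. No matches overlapped.

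Values were differences on a log2 scale from an unknown reference for each probe set, so a level in one gene cannot be set against another gene's. The levels of cell type markers could not be read either, and the labelled cell type was not checked by them. In series 2D04, control replicate 2 and DMSO replicate 2 stood apart from control replicate 4 and U0126 replicate 2. Between these pairs, 163 of 11874 genes differed by more than 0.5 and 14 by more than 1. CYP1B1, a dioxin-inducible cytochrome, read -0.20 and -0.49 in the pair that stood apart, and -2.08 and -2.20 in the other. The 6 arrays of that series taken at 0.5 and 1 h without U0126 read -2.44 to -1.79. MMP1, a collagenase, read 3.34 and 3.56 against 2.20 and 2.21. The same pair had the lowest difference between 5′ and 3′ beta-actin control probe sets, -0.36 on both, against -0.12 to 0.12 on the other 10 arrays. The part of this in the results was not tested, and the values of genes that rest on these 2 arrays are also given without them, with 7 comparison arrays. Without them U0126 against DMSO, DMSO against control and 3D minus 2D still gave 0 genes each, at 490, 754 and 314 genes with an unadjusted limma p under 0.05.

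**Figure D1:**
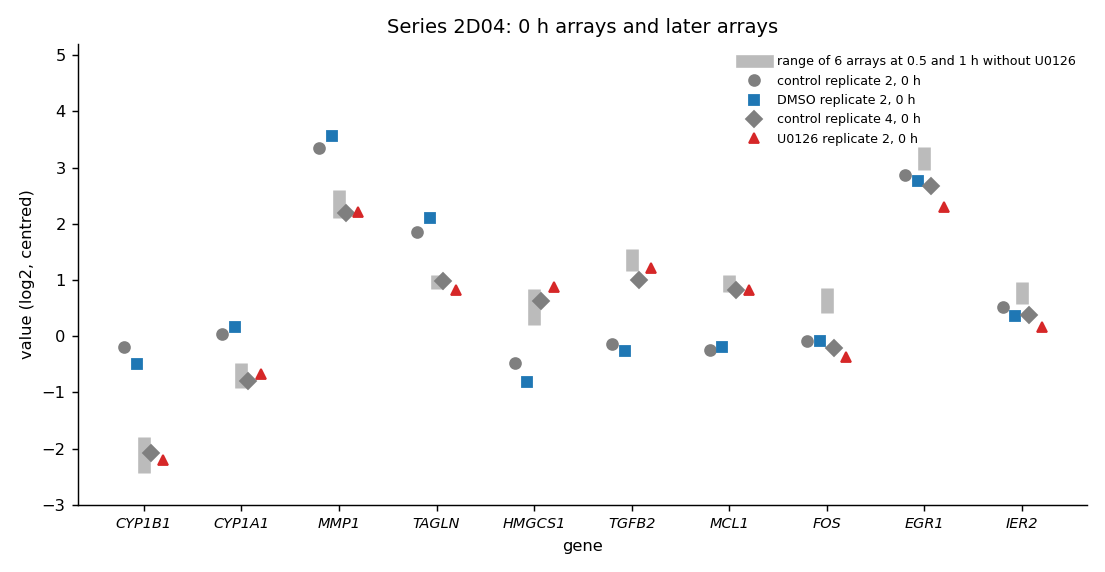
Values of 10 genes on the 4 arrays of series 2D04 at 0 h (markers) and the range of the 6 arrays at 0.5 and 1 h without U0126 (grey bars), on the deposited log2 scale centred per probe set. Control replicate 2 and DMSO replicate 2 are above the other arrays for CYP1B1, CYP1A1, MMP1 and TAGLN and below them for HMGCS1, TGFB2 and MCL1, while for FOS, EGR1 and IER2 the U0126 array is the lowest of the 4.

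U0126 pre-treatment alone gave no RNA difference that passed the test. With limma and Benjamini-Hochberg adjustment, 0 of 11874 genes (0%) passed an adjusted p of 0.05, and the smallest adjusted p was 0.813. At an unadjusted p under 0.05, 260 genes were lower (2.19%) and 296 higher (2.49%), 556 in all (4.68%). The differences were small: the middle of the distribution, from its 5th to its 95th percentile, ran from -0.13 to 0.14, with a median standard error of 0.070. CYP1B1 (-0.53) and HMGCS1 (0.61), a cholesterol synthesis enzyme, were the 2 genes beyond 0.5. Both drew on series 2D04, where they were -1.28 and 1.10, and without the 2 arrays that stood apart they were -0.15 and 0.33. The 4 probe sets of CYP1B1 ran from -0.53 to 0, and the one read was the lowest. In bulk RNA, fewer cells of a type and less RNA per cell cannot be told apart.

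A second rule used order alone: a gene counted where the U0126 array lay outside its 3 comparison arrays in each of the 3 series. It lay below in 173 genes (1.46%) and above in 148 (1.25%). Without the arrays that stood apart, which leaves series 2D04 with 1 comparison array, these counts were 319 below and 299 above. An exact two-sided permutation of the U0126 label within series has 64 arrangements and a smallest p of 0.0156. That p was reached by 138 genes, and it becomes 1 after adjustment over all genes.

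**Figure D2:**
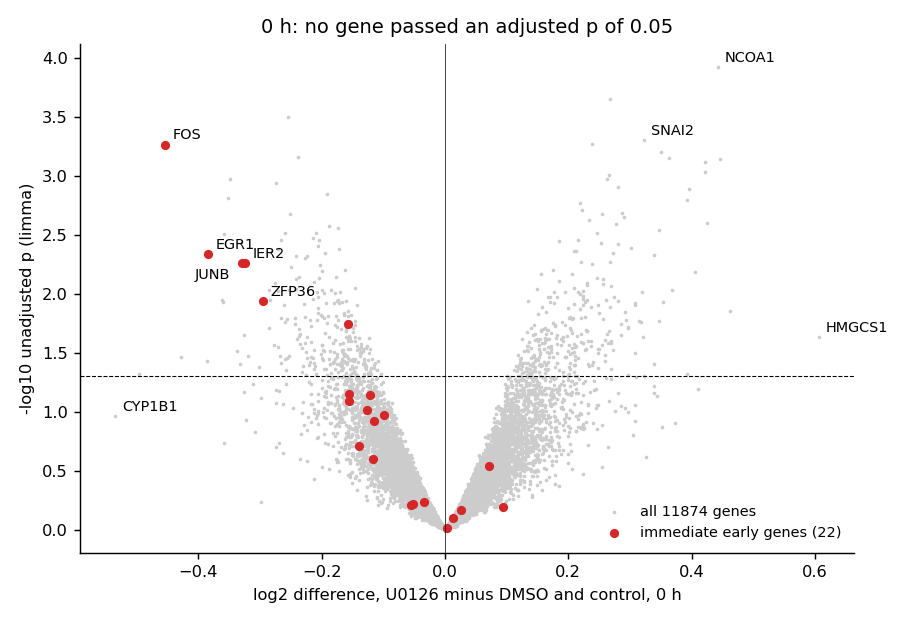
Each of 11874 genes by its log2 difference at 0 h (U0126 minus DMSO and control, within series) and its -log10 unadjusted limma p; red marks the 22 immediate early genes and the dashed line an unadjusted p of 0.05. FOS (-0.45), EGR1 (-0.38), JUNB (-0.33), IER2 (-0.32) and ZFP36 (-0.29) lie to the lower side, and HMGCS1 (0.61) and CYP1B1 (-0.53) have the largest differences with higher p.

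Immediate early genes lay mostly on the lower side, and none passed the test. FOS encodes a subunit of the AP-1 transcription factor. In series 2D03 it read 0.30 and 0.48 in the controls, 0.58 in DMSO and -0.41 with U0126. The corresponding values were -0.09, -0.21, -0.08 and -0.37 in 2D04, and -0.74, -0.80, -0.67 and -0.99 in 3D04. The U0126 array was thus the lowest of its series each time, by most in 2D03, although the series themselves differed by more than the treatment. The mean difference was -0.45 (SE 0.10, 3 series), equal to 1.37-fold lower, and by unadjusted p FOS ranked second among lower genes. Its limma adjusted p was 0.813 and its exact permutation p 0.0156, the smallest possible. Without the U0126 array of 2D03 the difference was -0.25.

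IER2, a nuclear protein gene induced by growth factors, read 1.42 and 1.29 in the 2D03 controls, 0.93 in DMSO and 0.62 with U0126. In 2D04 it read 0.51, 0.38, 0.35 and 0.17, and in 3D04 0.01, -0.06, 0.07 and -0.13. The U0126 array was again the lowest of each series, although in 2D03 the DMSO array lay closer to it than to the controls. The mean difference was -0.32 (SE 0.10), or -0.19 without the U0126 array of 2D03. The limma adjusted p was 0.976 and the exact permutation p 0.0156.

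ZFP36 encodes tristetraprolin, which speeds the decay of AU-rich cytokine RNAs. It read 0.41 and 0.02 in the 2D03 controls, 0.02 in DMSO and -0.45 with U0126. In 2D04 the values were -0.65, -0.68, -0.63 and -0.79, and in 3D04 -1.29, -1.33, -1.08 and -1.38. The groups did not overlap within any series, but outside 2D03 the U0126 array was below its nearest neighbour by a small margin. The mean difference was -0.29 (SE 0.10), or -0.14 without the U0126 array of 2D03, with a limma adjusted p of 0.976.

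EGR1, a zinc finger transcription factor, read 3.00 and 3.22 in the 2D03 controls, 2.55 in DMSO and 2.69 with U0126. In 2D04 it read 2.87, 2.67, 2.77 and 2.30, and in 3D04 1.25, 1.26, 1.51 and 0.89. U0126 was the lowest array in 2D04 and 3D04, but in 2D03 the DMSO array lay below it. The mean difference was -0.38 (SE 0.11), with a limma adjusted p of 0.976 and an exact permutation p of 0.0312. The second EGR1 probe set gave -0.71 (SE 0.24), so the 2 differ in size and not in direction.

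**Figure D3:**
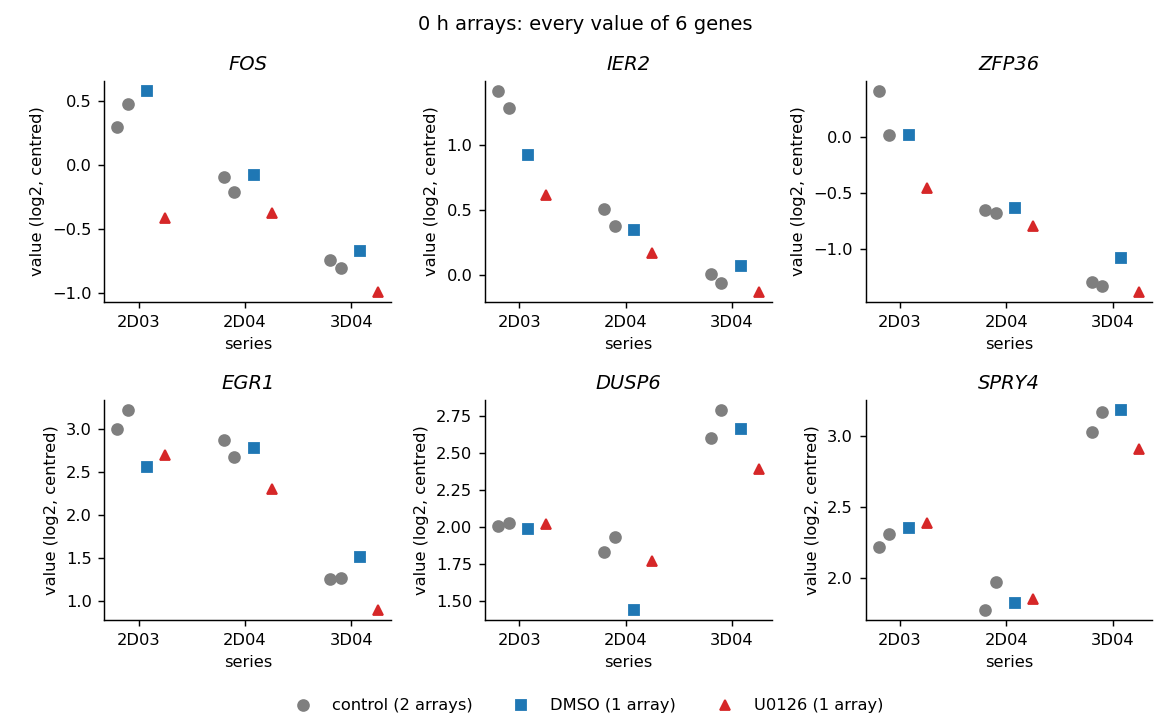
Values of FOS, IER2, ZFP36, EGR1, DUSP6 and SPRY4 on each of the 12 arrays at 0 h, on the deposited log2 scale centred per probe set, by series; circles are control, squares DMSO and triangles U0126. The U0126 triangle is the lowest point of every series for FOS, IER2 and ZFP36, and of series 3D04 alone for DUSP6 and SPRY4.

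JUNB, another AP-1 subunit, had a mean difference of -0.33 (SE 0.10). Its U0126 array was lowest in 2D03 (-0.14, against 0.25 to 0.60) and in 3D04 (-0.82, against -0.57 to -0.38). In 2D04 it lay among the others (-0.55, against -0.58 to -0.39). IER3, a stress-response gene, had a difference of -0.16 (SE 0.06). Of 24 immediate early genes listed, 22 were measured, and EGR2 and BTG2 were not analysed here. Of the 22, 0 passed the test, 6 were lower at an unadjusted p under 0.05 and 0 were higher, where 2.19% and 2.49% of all genes were. These 6 were FOS, EGR1, JUNB, IER2, ZFP36 and IER3. The median difference was -0.12, where the median of all genes was 0.00, and 11 of the 22 (50%) were lower in all 3 series, where 14.4% of all genes were. By series the list's median was -0.22 in 2D03, -0.05 in 2D04 and -0.13 in 3D04, and it was -0.14 without the arrays that stood apart. The other members ran from -0.16 for FOSB and ATF3 to 0.07 for EGR3 and 0.09 for MCL1. MCL1, which encodes a survival protein, rested on the arrays that stood apart: its effects were -0.14, 0.69 and -0.27 in 2D03, 2D04 and 3D04, and without those arrays its mean was -0.15.

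Feedback and output genes of ERK gave no call either. DUSP6, the phosphatase that inactivates ERK, read 2.01 and 2.03 in the 2D03 controls, 1.99 in DMSO and 2.02 with U0126. In 2D04 it read 1.83, 1.93, 1.44 and 1.77, and in 3D04 2.60, 2.79, 2.66 and 2.39. U0126 and comparison arrays overlapped in both 2D series, and only in 3D04 was the U0126 array the lowest. The mean difference was -0.08 (95% interval -0.29 to 0.12, limma adjusted p 0.976), or 0.023 without 3D04.

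SPRY4, an inhibitor of receptor signalling to RAS, read 2.22, 2.31, 2.35 and, with U0126, 2.39 in 2D03. It read 1.77, 1.97, 1.82 and 1.85 in 2D04 and 3.03, 3.17, 3.19 and 2.91 in 3D04. In 2D03 the U0126 array was thus the highest and in 3D04 the lowest. The mean difference was -0.04 (95% interval -0.19 to 0.11), or 0.047 without 3D04. FOSL1, an AP-1 subunit whose protein ERK stabilises, was lowest with U0126 in every series, but by a mean of only -0.09 (SE 0.06).

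CCND1, the gene of cyclin D1, gave -0.05 (SE 0.06), with its U0126 array level with the highest of 4 in 2D04 (0.76) and the lowest in 2D03 (0.66) and 3D04 (0.22). MYC, the growth-promoting transcription factor, gave -0.10 (SE 0.07) against DMSO and control together, but 0.017 (SE 0.07) against DMSO. Over this list, 17 of 20 genes were measured and 0 passed the test. At an unadjusted p under 0.05, 2 were lower (EGR1 and IER3, both also in the immediate early list) and 0 higher, where 2.19% and 2.49% of all genes were. The median was -0.06, and by series it was -0.03 in 2D03, 0.03 in 2D04 and -0.16 in 3D04. In all 3 series 2 of 17 (11.8%) were lower, near the 14.4% of all genes.

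Cytokine and chemokine RNAs with AU-rich tails are another short-lived class, induced downstream of ERK and NF-kB. Besides such genes, the list held the EGFR ligand genes HBEGF, AREG and EREG, and also TNFAIP3, NFKBIA and PTGS2. All 17 of the 19 listed that were measured had a difference below 0, where 49.9% of all genes did. None passed the test, and 2 were lower at an unadjusted p under 0.05, where 2.19% of all genes were. CXCL2, a neutrophil chemokine, had the largest difference, -0.43 (SE 0.18). It read 3.14 and 2.97 in the 2D03 controls, 2.44 in DMSO and 1.72 with U0126, but in 2D04 (0.88, 1.07, 0.87 and 0.91) and in 3D04 (0.51, 0.08, 0.32 and 0.18) the groups overlapped. Without the U0126 array of 2D03 it was -0.08.

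EREG, the EGFR ligand epiregulin, had U0126 lowest in every series and a mean of -0.14 (SE 0.06). CXCL8, the interleukin-8 gene, gave -0.21 (SE 0.13) and was lowest with U0126 in 3D04 alone (1.18, against 1.44 to 1.71). In 2D03 it read 3.95 both in DMSO and with U0126, and 4.48 and 4.34 in the controls. The median of the list was -0.30 in 2D03, -0.00 in 2D04 and -0.06 in 3D04, and 5 of 17 members (29.4%) were lower in all 3 series, where 14.4% of all genes were. Against DMSO alone the list's median was -0.08, and DMSO against control gave -0.08 as well. The part of the vehicle in this list was not tested.

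Genes of the pathway itself gave values on both sides of 0. Of 19 listed genes from EGFR to the RSK kinases, 14 were measured, with values from -0.19 to 0.23 and a median of 0.02, and 0 passed the test. In all 3 series 4 of the 14 (28.6%) were higher, where 13% of all genes were. EGFR, the receptor of EGF, gave 0.23 (SE 0.14), or 0.16 without the arrays that stood apart, and its U0126 array was the highest in 2D04 and 3D04 but not in 2D03. GRB2, an adaptor that links receptors to RAS activation, gave -0.19 (SE 0.09). MAP2K2, which encodes MEK2, a direct target of U0126, gave 0.11 (SE 0.05), and MAP2K1, which encodes MEK1, gave -0.01.

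Among 13 measured genes listed as released early by ERK inhibition (such as TXNIP, TOB1 and KLF9), 0 passed the test and the median was -0.00. At 0.5 and 1 h, TXNIP and IRS2 of this list were called lower with U0126 by limma and CDKN1B higher. Of 7 ID genes and BMP targets, ID4, an inhibitor of basic helix-loop-helix factors, had the largest value, 0.42 (SE 0.11). Its U0126 array read 0.85 in 2D03 (others -0.15 to 0.48), 0.51 in 2D04 (others -0.02 to 0.31) and 2.32 in 3D04 (others 2.01 to 2.16), so it was the highest each time. The mean of all ID4 probe sets gave 0.19. ID2 gave -0.18 (SE 0.11), with its 3 probe sets running from -0.18 to 0.12.

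Aryl hydrocarbon receptor targets included genes whose values rested on the arrays that stood apart. CYP1A1, its classical target, gave -0.15 (SE 0.18) with those arrays and 0.04 without them. TIPARP, a repressor of that receptor, had U0126 lowest in each series and gave -0.26 (SE 0.11), or -0.13 without them. None of the 9 measured members passed the test.

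Stress, cell cycle and marker lists gave medians between -0.03 and 0.08, and 0 of their members passed the test. Heat shock and proteotoxic stress genes (15 measured) had a median of -0.01 and 0 members at an unadjusted p under 0.05. The medians were -0.01 for 18 genes of G1/S and DNA replication and -0.03 for 16 genes of G2/M and mitosis. Markers of other cell types gave medians of 0.04 for 12 luminal epithelial genes, 0.08 for 8 leukocyte genes and -0.00 for 10 fibroblast genes. Leukocyte markers CD68 (0.20, SE 0.07) and HLA-DRA (0.19, SE 0.07) were highest with U0126 in every series, 2 of 8 (25%) where 1.25% of all genes were. At an unadjusted limma p under 0.05, 2 of the 8 were higher and 0 lower, where 2.49% and 2.19% of all genes were. In all 3 series 4 of the 8 (50%) were higher, where 13% of all genes were. This small list of leukocyte markers, whose presence in the line could not be read, also had shares above those of all genes. The DMSO arrays read lowest for CD68, at 0.11, -0.01 and 0.01. Their part in other results was not tested.

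**Figure D4:**
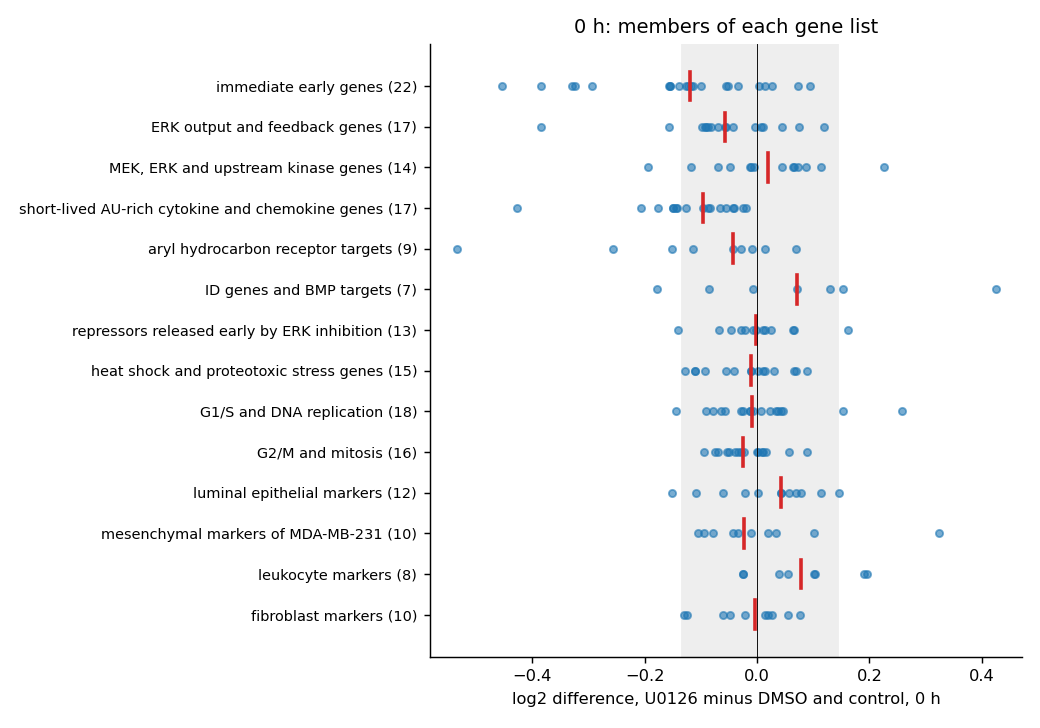
Log2 differences at 0 h (U0126 minus DMSO and control) of the measured members of 14 gene lists; dots are genes, red bars medians, and the grey band runs from the 5th to the 95th percentile of all genes (-0.13 to 0.14). Immediate early genes (median -0.12) and AU-rich cytokine genes (median -0.10) lie to the left of 0, and the other medians lie between -0.06 and 0.08.

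The 10 genes with the smallest p among those higher in all 3 series were NCOA1, RHOBTB1, SNAI2, TAT, NUP62CL, IFT70A, S100A3, CEMIP, RAB35 and KCNF1. None passed the test, and their differences ran from 0.24 to 0.45. NCOA1, a coactivator of nuclear receptors, read -0.64, -0.67 and -0.50 in the 2D03 comparison arrays and 0.06 with U0126. In 2D04 it read -0.52, -0.27, -0.61 and -0.04, and in 3D04 -0.09, -0.02, -0.03 and 0.19. Its mean difference was 0.44 (SE 0.08), but its other 3 probe sets gave -0.01 to 0.05.

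SNAI2, the mesenchymal transcription factor Slug, read 0.87, 0.96 and 0.81 in the 2D03 comparison arrays and 1.29 with U0126. In 2D04 the values were 0.22, 0.35, 0.23 and 0.56, and in 3D04 1.71, 1.36, 1.44 and 1.77. It has 1 probe set, a mean difference of 0.32 (SE 0.07) and a limma adjusted p of 0.813. The other 9 measured mesenchymal markers ran from -0.11 for ZEB1 to 0.10 for FN1, and the median of all 10 was -0.02.

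RHOBTB1 gave 0.27 (SE 0.05), with effects of 0.32, 0.23 and 0.26 in the 3 series. S100A3, a calcium-binding protein gene, gave 0.45 (SE 0.10), with 0.64 and 0.59 in the 2D series and 0.10 in 3D04. CEMIP, which takes part in hyaluronan breakdown, and RAB35, a GTPase of endosome recycling, each gave 0.42. Their other probe sets gave -0.12 and -0.06, so these values rest on the probe set read.

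The 10 genes with the smallest p among those lower in all 3 series were PGC, FOS, MYO1C, SOX10, ATAD3A, H2AC17, EIF5, CD2, GSK3B and SPRR3. Apart from FOS, their differences ran from -0.35 to -0.17. PGC, the gene of the stomach enzyme progastricsin, gave -0.25 (SE 0.05), with effects of -0.30, -0.19 and -0.28. MYO1C, an unconventional myosin, gave -0.24 (SE 0.05), and U0126 was lowest in each series. EIF5, a translation initiation factor, gave -0.35 (SE 0.09), while its 5 probe sets ran from -0.35 to -0.01. FOS was the single immediate early gene among these 20.

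The genes that U0126 lowered once EGF was present give a list made on other arrays, chosen after the data were seen. At 0.5 and 1 h, U0126 was compared with DMSO plus EGF in 24 arrays that hold none of the 0 h arrays. There, 48 genes were lower (0.404%) and 5 higher (0.0421%) by limma. At 0 h, 0 of those 48 passed the test. In the 0 h arrays 13 of the 48 were lower at an unadjusted p under 0.05 and 0 higher, where 2.19% and 2.49% of all genes were. These included FOS, EGR1, JUNB, IER2, ZFP36 and IER3 of the immediate early list and CXCL2 of the cytokine list. Of the 48, 10 were in the immediate early list and 6 in the cytokine list. The same 0 h values are therefore counted in both places. Below all comparison arrays in every series lay 9 (18.8%, against 1.46% of all genes), and 41 (85.4%, against 49.9%) had a difference below 0. The median of the 48 at 0 h was -0.09 against DMSO and control together, where the median at 0.5 and 1 h was -0.58 against DMSO plus EGF. Against DMSO alone the 0 h median was -0.07, and DMSO against control gave -0.05.

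The 9 below in every series were FOS, IER2, ZFP36, FOSL1, SGK1, EDN1, YRDC, RHOB and ENC1. These 9 were singled out after their values were seen. SGK1, a serum-induced kinase, read 3.17, 3.14 and 2.78 in the 2D03 comparison arrays and 2.70 with U0126. In 2D04 it read 2.72, 2.65, 2.64 and 2.42, and in 3D04 1.69, 1.61, 1.68 and 1.49. Its difference was -0.25 (SE 0.08) against DMSO and control at 0 h and -0.85 against DMSO plus EGF at 0.5 and 1 h.

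EDN1, the gene of the vasoconstrictor endothelin-1, gave -0.27 (SE 0.08) at 0 h against -0.41 later. YRDC, a tRNA modification gene, gave -0.18 (SE 0.06) against -0.56. RHOB, a small GTPase, gave -0.07 (SE 0.05) against -0.89. The 0 h value was thus a small share of the later one for RHOB and a larger one for EDN1, although the comparison arrays differed as for SGK1. With each effect against its own DMSO array, the later minus the 0 h effect was -0.815 for RHOB and -0.16 for EDN1. Of the 5 genes higher with U0126 at 0.5 and 1 h, CYP1B1 gave 1.36 there and -0.53 at 0 h. Its 0 h value was -0.15 without the 2 arrays that stood apart. The median of the 5 at 0 h was 0.02.

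Whether the U0126 effect with EGF differed from that of pre-treatment alone was tested as the difference between both effects, each against its own DMSO array. EGR1 and IER2 passed, 2 of 11874 genes (0.0168%), and 763 genes had an unadjusted limma p under 0.05 (6.43%). For EGR1 the effect averaged over 0.5 and 1 h was -1.83, and the difference from 0 h was -1.51 (SE 0.21, limma adjusted p 0.00144). For IER2 the later effect was -0.99 and the difference -0.76 (SE 0.12, limma adjusted p 0.0149). For both genes the values at 0.5 h and at 1 h lay below the 0 h value in each of the 3 series. Both calls were lost with the spread taken from all 96 arrays (limma adjusted p 0.0511 for EGR1 and 0.321 for IER2) and at 0.5 h alone (0.702 and 0.862), and that of IER2 without the series block (adjusted p 1). The IER2 call was also lost without the 2D03 DMSO array at 0 h (adjusted p 0.219), without the 2D04 U0126 array at 0 h (0.175) or without the 3D04 U0126 array at 0 h (0.0993). Leaving out 1 array also moved the count of genes: to 1 without the 2D03 DMSO or the 2D04 U0126 array at 0 h, to 4 without the 2D04 DMSO array at 0 h, to 5 without the 2D03 U0126 array at 0.5 h and to 12 without the 2D04 U0126 array at 1 h.

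For FOS the later effect was -1.23 and the difference from 0 h -0.70 (SE 0.28), which did not pass (limma adjusted p 0.718). DUSP6 had a later effect of -1.47 and a difference of -1.50, but with an SE of 0.45 it did not pass either (adjusted p 0.521). SPRY4 (difference -0.94, SE 0.25) and ZFP36 (-0.73, SE 0.16) also did not pass. Without the arrays that stood apart the count was 5: EGR1, IER2, CYP1B1, DYRK2 and LIPG.

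**Figure D5:**
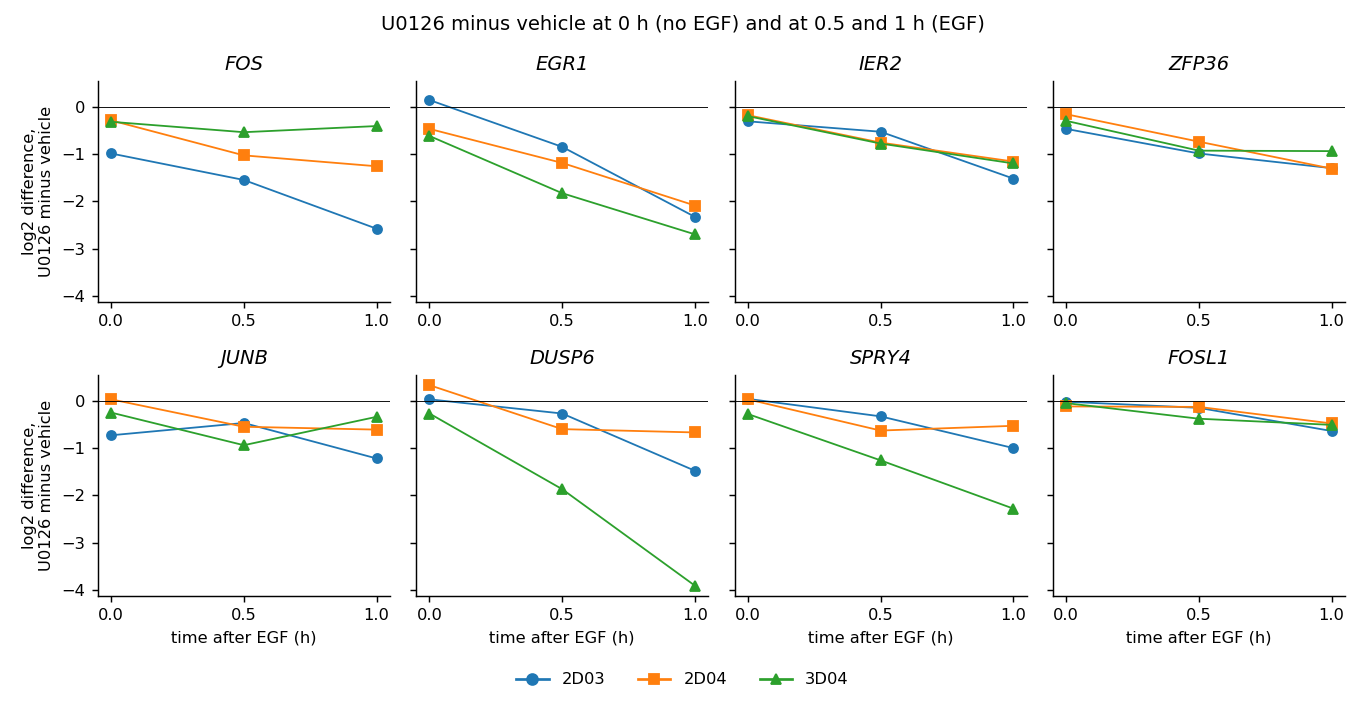
Log2 difference of U0126 minus its vehicle array (DMSO at 0 h, DMSO with EGF at 0.5 and 1 h) in each series for 8 genes, with 1 array per arm, series and time. Lines for EGR1 and IER2 run down from 0 h to 1 h in all 3 series, and DUSP6, at 0.03, 0.33 and -0.27 at 0 h, and SPRY4, at 0.04, 0.03 and -0.28, run lowest in series 3D04.

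DMSO was the vehicle-matched control, with 1 array in each series. Against DMSO, 0 of 11874 genes (0%) passed, and 550 had an unadjusted limma p under 0.05 (4.63%). The differences against DMSO were -0.53 (SE 0.12) for FOS, -0.32 (SE 0.14) for EGR1, -0.31 (SE 0.13) for ZFP36 and -0.23 (SE 0.12) for IER2. The median of the immediate early list was -0.11 against DMSO. DMSO itself against control gave 0 genes (0%) and 694 at an unadjusted limma p under 0.05 (5.84%). The immediate early list had a median of -0.02 in that comparison.

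APH1B, a gamma-secretase subunit named after its values were seen, came closest for DMSO against control. It read -0.63, -1.24 and -1.06 in the DMSO arrays and -0.88 to -0.12 in the controls. In each series the DMSO array was the lowest, and the difference was -0.45 (SE 0.06, limma adjusted p 0.0887). U0126, which was given in the same vehicle by its label, read -0.23, -0.79 and -0.80 for this gene, closer to the controls. The part of the vehicle in the values against DMSO was not tested beyond this.

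A difference in the U0126 effect between 3D and 2D culture was tested with 1 U0126 array in 3D. By limma, 0 of 11874 genes (0%) passed, and 320 had an unadjusted p under 0.05 (2.69%). The 3D effect minus the 2D effect was -0.32 (SE 0.19) for DUSP6 and -0.27 (SE 0.14) for SPRY4. It was 0.30 (SE 0.20) for FOS and -0.10 (SE 0.25) for EGR1. In 3D04, FOS read -0.99 with U0126 at 0 h and between -1.17 and -0.98 on the later U0126 arrays. Whether FOS could read much lower in 3D04 was not tested. Since 3D culture is 1 series, the culture and the series cannot be told apart. The difference for DUSP6 did not pass, and what size of difference these arrays could detect was not tested.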

How the data were processed

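The deposited table holds values per probe set and array that are presumed to be log2 signals, because RMA is named per the submitters' processing notes. The log base and any centring are not given in the sources used here. Array medians lay between -0.06 and 0.03 and values between -5 and 5.7, so only differences between arrays were used. Precision is limited by how many arrays there are.

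Of 22930 probe sets, 19290 had 1 symbol in the platform annotation and a RefSeq match by gene ID. They gave 11874 genes, each read from the probe set with the largest SD over the 84 arrays not at 0 h. Of these genes, 4449 had several probe sets, and those named as disagreeing are uncertain.

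U0126 was compared with DMSO and control in limma 3.58.1 (R 4.3.3; lmFit, eBayes with a variance trend), with series as a block (8 residual degrees of freedom), Benjamini-Hochberg adjustment over all genes and a threshold of 0.05. The block was kept because the 2D arrays of a series deviated together across arms at 0 h. For replicate 1 of 2D03 and replicate 2 of 2D04 these deviations correlated at 0.705 to 0.746. Series 3D04 and control replicates 3 and 4 were not part of this check. Arms against DMSO, DMSO against control, the culture interaction and the change with time (36 arrays) used models of the same kind. No 2 arrays were identical. The fits were tested on simulated data.

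The samples and the 14 gene lists (188 of 204 entries measured) were chosen with earlier results of these data known. Named genes were the 10 with the smallest p of one sign in all series in each direction, up to 4 per list, and DUSP6, SPRY4, EGR1, FOS, FOSL1, CCND1, MYC, IER2, ZFP36, CYP1A1, CYP1B1 and ID2. Other genes were chosen after their values were seen. Alternatives covered normalization, probe set rule, filter, variance model, block, comparison arrays, culture and each array left out.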

Additional observations from a re-analysis of the deposited data

Results flagged for a closer look

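EGR1 and IER2 were singled out because the effect of U0126 differed, by a test of the difference, between 0 h and the later 0.5 and 1 h. The later effect minus the 0 h effect was -1.51 for EGR1 (SE 0.21, limma adjusted p 0.00144) and -0.76 for IER2 (SE 0.12, limma adjusted p 0.0149). EGF was present at the later times and not at 0 h, so time and EGF cannot be told apart. Both calls were lost with the spread taken from all 96 arrays (limma adjusted p 0.0511 and 0.321) and at 0.5 h alone (0.702 and 0.862), and that of IER2 with no replicate block (adjusted p 1).

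Among the 4 control arrays of 2D culture at 0 h, 59 genes were checked for 1 array far from the others, and 2 genes had one. Chance alone gives about 1 in 20 in genes taken without regard to their values, a share that 2 of 59 did not exceed. The 59 were genes named in this report, some of them because of arrays of series 2D04. That share therefore cannot say whether these 2 readings are due to chance. The check pooled the controls of both 2D series. For CYP1B1, control replicate 2 of series 2D04 read -0.20 against -2.27 to -2.07 in the other 3, a gap of 0.903 of the whole range. For HMGCS1, control replicate 4 of the same series read 0.62 against -0.47 to -0.36, a gap of 0.899. The 6 arrays of series 2D04 at 0.5 and 1 h without U0126 read 0.20 to 0.84 for HMGCS1. Control replicate 4 lay within that range, and control replicate 2 of 2D04, at -0.47, did not.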

How the results depend on the processing

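The count of 0 genes at 0 h held under all 26 alternatives for U0126 against DMSO and control, with 189 to 737 genes at an unadjusted limma p under 0.05, and under the 21 against DMSO and the 19 for 3D minus 2D. Without the series as a replicate block the first count was 0, with 205 genes at an unadjusted p under 0.05. Leaving out each array gave 0 to 0 in these comparisons and in DMSO against control. With the mean of all probe sets, DMSO against control gave 1 gene, APH1B (limma adjusted p 0.0407).

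For the change from 0 h to 0.5 and 1 h, the count was 0 with the spread from all 96 arrays, 1 with no replicate block (EGR1), 0 at 0.5 h alone, 6 at 1 h alone and 5 without the 2 arrays that stood apart. It ran from 1 to 12 with each array left out. The order rule gave 1377 genes in the 2D series alone and 618 without the 2 arrays that stood apart, and 405 to 1377 with each array left out. Fewer series or arrays make that rule easier to meet.

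Direction turned for CYP1A1 (0.01 without 2D U0126 replicate 2, 0.04 without the arrays that stood apart), DUSP6 (0.023 without the 3D U0126 array and in 2D alone, 0.03 against DMSO arrays only), SPRY4 (0.047 without the 3D U0126 array and in 2D alone), MYC (0.017 against DMSO arrays only), TGFB2 (-0.11 in 3D alone), FOSB (0.053 in 3D alone), EGR3 (-0.022 without 2D U0126 replicate 2, -0.073 in 3D alone), MAP2K1 (0.041 with the mean of probe sets, 0.013 without 2D U0126 replicate 1, 0.02 in 3D alone) and MCL1 (-0.056 with the mean of probe sets, -0.205 without 2D U0126 replicate 2, -0.154 without the arrays that stood apart, -0.27 in 3D alone). With each array left out, the value ran from -0.245 to 0.01 for CYP1A1, from -0.142 to 0.023 for DUSP6, from -0.112 to 0.047 for SPRY4, from -0.022 to 0.145 for EGR3, from -0.028 to 0.013 for MAP2K1 and from -0.205 to 0.277 for MCL1. The cause was not tested. Of 1622 values of single genes under alternatives, 1595 kept direction and side of the threshold. The alternatives that leave out the arrays that stood apart, leave out later arrays or test each probe set were chosen after seeing the data. With 1 U0126 array per series, the number of arrays limits what could be detected.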
